A study of Mus musculus with 12 samples.

Results

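Busulfan alone was compared with no drug in the mouse small intestine: 3 libraries of the group B+A0 (busulfan, AOS 0) were set against 3 of the group AOS0 (no busulfan, AOS 0), so 6 of the 12 libraries of the series enter the comparison. The members were taken from the treatment that the labels give each sample, and the comparison runs across all genes. All animals were of the outbred ICR strain. AOS is a second treatment that the labels name at levels 0 and 10 without spelling it out, and both groups here are at level 0. The remaining 6 libraries hold AOS10 (no busulfan, AOS 10) and B+A10 (busulfan, AOS 10), with 3 libraries each. The labels give no dose, route, time, age or sex, and it is not stated whether each library is a separate animal. The p-values therefore reflect the spread between these libraries only, which may be technical. Libraries are written by group and replicate number, as in AOS0-1 or B+A0-3.

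Busulfan is a bifunctional alkylating agent that forms crosslinks in DNA. It is used to empty the bone marrow before transplantation and to remove germ cells in mice. The lining of the small intestine is renewed by dividing crypt cells, and it houses many lymphocytes between its epithelial cells. Cells that carry misfolded protein switch on chaperones through separate programmes: heat shock factor acts on genes of cytosolic chaperones, and the unfolded protein response acts on chaperones of the endoplasmic reticulum (ER), where secreted proteins are folded.

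Total counts were 13560232 to 14996023 in the AOS0 libraries and 16382038 to 16818245 in the B+A0 libraries. The 6 libraries carried the markers of intestinal epithelium, with 26356 to 39565 counts of Vil1 (villin, a brush border protein), 21986 to 24895 of Epcam and 24617 to 32661 of the goblet cell mucin Muc2. Markers of the muscle wall were at or near 0: Acta2 had 0 to 4 counts, Myh11 0 to 3 and Des 0 to 2. Of 2 endothelial markers, Cdh5 had 0 or 1 count, and Pecam1, which leukocytes also carry, had 15 to 21 counts in AOS0 and 3 to 8 in B+A0; its part in the results was not tested. The pancreatic Prss2 and the fat cell gene Adipoq had 0 counts throughout. The defining markers of the intestinal epithelium were thus present, and those of muscle named here were at or near 0. On the first principal component of log2(CPM + 1) over all 12 libraries, which held 29.2% of the variance, the AOS0 libraries lay at -11.3, -7.38 and -17.6 and the B+A0 libraries at 3.47, 20.4 and 29.1. B+A0-1 therefore lay nearest to AOS0, and among the genes called below it was the B+A0 library nearest the AOS0 mean in 267 of 449.

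After busulfan, genes of cytosolic and ER chaperones were higher, and genes of T cells and mast cells and some genes of epithelial drug metabolism were lower. Of 12329 genes tested, 210 were called higher and 239 lower in B+A0 (edgeR quasi-likelihood test, Benjamini-Hochberg adjusted p under 0.05), which is 1.7% and 1.94% of the genes tested. The rises and falls differed in kind. The rises were small and in abundant genes, with a median log2 fold change of 0.48 and a median level of 71.4 CPM (counts relative to the TMM-scaled library size), and 20 exceeded 2-fold. The falls were larger and in scarcer genes, with a median log2 fold change of -1.13 and a median level of 9.88 CPM, and 128 exceeded 2-fold. Of the falls, 41.8% had a mean under 5 CPM, against 2.86% of the rises and 19.3% of all genes tested. The median over all genes tested was -0.0072. The 3 B+A0 values lay outside the 3 AOS0 values in each of the 449 called genes, and in 29.0% of all genes tested. The split differed with another test on other values: limma on log2(FPKM + 1) called 133 higher and 322 lower. Leaving out B+A0-1 raised the counts to 495 and 604, and leaving out any other library lowered them, to 17 and 25 without AOS0-1, 85 and 128 without AOS0-2, 32 and 21 without AOS0-3, 62 and 50 without B+A0-2, and 15 and 6 without B+A0-3.

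**Figure D1:**
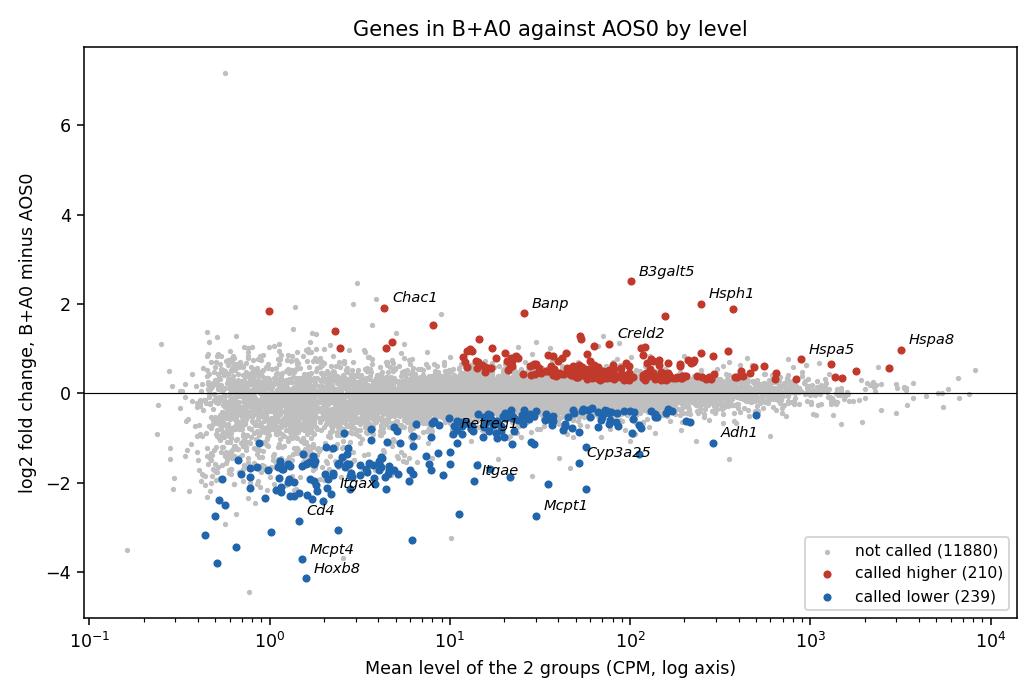
Each point is 1 of the 12329 tested genes, placed by its mean level in the 2 groups (CPM, log axis) and its log2 fold change in B+A0 against AOS0. The 210 genes called higher (red) lie mostly at high levels with small changes, and the 239 called lower (blue) reach to log2 fold changes below -3 at low levels.

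Cytosolic chaperones were among the rises. Of 41 tested genes of a list of cytosolic and mitochondrial heat shock chaperones, 13 rose and none fell, 39 had a log2 fold change above 0, and the median was 0.41. Hsph1, a large co-chaperone that exchanges the nucleotide of HSP70 proteins (chromosome 5, 149616843 to 149636498, GRCm38), stood at 91.1, 123 and 81.7 CPM in AOS0 and at 268, 433 and 488 CPM in B+A0. All 3 busulfan libraries lay above all 3 controls, as in every gene called higher, and the fold was 4.02 (log2 fold change 2.01 with SE 0.27, edgeR adjusted p = 0.00517). Hspa8, the constitutive HSP70 of the cytosol and the most abundant chaperone named here, stood at 2188, 2240 and 1986 CPM in AOS0 and at 3577, 4483 and 4509 CPM in B+A0 (log2 fold change 0.97 with SE 0.12, edgeR adjusted p = 0.00399). Per length, the authors' values averaged 1105 FPKM for Hspa8 in AOS0 and 2107 in B+A0, against 31.3 and 121 FPKM for Hsph1.

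The stress-inducible HSP70 genes Hspa1a and Hspa1b had log2 fold changes of 1.73 and 1.88. They are near-identical copies between which reads may be split, so the value of each alone is uncertain. Partners of HSP70 and HSP90 rose with them. Bag3, a co-chaperone of protein turnover, stood at 71.3, 85.4 and 80.5 CPM in AOS0 and at 128, 154 and 203 CPM in B+A0. Chordc1, a co-chaperone of HSP90, went from 40.7, 46.0 and 35.1 CPM to 73.5, 90.9 and 90.7 CPM, and Stip1, which links HSP70 to HSP90, from 198, 223 and 196 CPM to 304, 379 and 416 CPM. In each of these genes the lowest busulfan library exceeded the highest control, as in all 210 genes called higher and, in either direction, 29.0% of all genes tested. Dnajb1 and Dnaja1, which deliver clients to HSP70, rose by 0.86 and 0.91 on the log2 scale, Hsp90ab1 by 0.56, and Hsf1, the heat shock factor itself, by 0.41. The inducible HSP90 gene Hsp90aa1 had 334, 357 and 286 CPM in AOS0 and 459, 630 and 600 CPM in B+A0, without passing (log2 fold change 0.79 with SE 0.23, edgeR adjusted p = 0.0728). The mitochondrial chaperonin Hspd1 did not pass either (0.42 with SE 0.15, edgeR adjusted p = 0.135). The number of members that rose was 2 without AOS0-1, AOS0-3 or B+A0-3, 6 without B+A0-2 and 9 without AOS0-2, and it was 19 without B+A0-1. Hsph1 and Hspa8 were called in all 12 alternative analyses, which include each of these.

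The ER chaperones and the unfolded protein response gave the most rises of the gene lists. Of 46 tested members 19 rose and none fell, 45 lay above 0 and the median log2 fold change was 0.37. Hspa5, which encodes BiP, the HSP70 of the ER lumen, stood at 648, 696 and 633 CPM in AOS0 and at 1078, 1140 and 1121 CPM in B+A0 (log2 fold change 0.76 with SE 0.12, edgeR adjusted p = 0.0112). Creld2, a disulfide isomerase-like protein of the ER, stood at 47.5, 48.6 and 50.3 CPM and at 103, 93.8 and 117 CPM, with a log2 fold change of 1.10 (SE 0.11, edgeR adjusted p = 0.00183). The groups were far apart in both genes relative to their spread.

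Other rises ran through the steps of ER quality control. Hyou1, the nucleotide exchange factor of BiP, stood at 215, 265 and 239 CPM in AOS0 and at 446, 427 and 511 CPM in B+A0. The disulfide isomerase Pdia4 rose by 0.74 on the log2 scale, the lectin chaperone Calr by 0.50 and the secreted folding factor Manf by 0.70. Syvn1 and Herpud1, parts of the ubiquitin ligase complex that removes misfolded proteins from the ER, rose by 0.77 and 1.01. Of the sensors and factors that drive the response, Eif2ak3 (PERK) rose by 0.50 and the transcription factor Xbp1 by 0.39. The count of 19 fell to 7 without AOS0-1, 10 without AOS0-3 and 9 without B+A0-3. Creld2, Hyou1, Syvn1, Herpud1, Pdia4 and Manf were called in all 12 alternative analyses.

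Because these genes moved together, their promoters were searched for the elements that the 2 programmes are known to use. The windows are RefSeq promoters of build GRCm38.p6, from 250 bases before to 50 bases after a transcript start, and 9897 of the tested genes had at least 1. The heat shock element was searched as 3 alternating units, GAANNTTCNNGAA and its complement TTCNNGAANNTTC. The ER stress element was searched as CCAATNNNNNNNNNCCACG, which on the other strand reads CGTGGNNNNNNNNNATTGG. N is any base, both strands were searched, and neither motif is contained in the other. The 6 windows below are shown because they belong to called chaperone genes, or partners of chaperones, and hold a match. Capitals mark the matching bases.
Hspa5 (ER stress element, chr2:34771840-34772139, plus strand): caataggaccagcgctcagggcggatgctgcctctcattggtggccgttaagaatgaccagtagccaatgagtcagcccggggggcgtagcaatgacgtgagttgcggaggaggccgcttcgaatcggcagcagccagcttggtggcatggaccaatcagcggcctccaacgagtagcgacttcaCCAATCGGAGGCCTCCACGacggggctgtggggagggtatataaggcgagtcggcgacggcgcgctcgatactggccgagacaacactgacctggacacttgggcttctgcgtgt
Creld2 (ER stress element, chr15:88819396-88819695, plus strand): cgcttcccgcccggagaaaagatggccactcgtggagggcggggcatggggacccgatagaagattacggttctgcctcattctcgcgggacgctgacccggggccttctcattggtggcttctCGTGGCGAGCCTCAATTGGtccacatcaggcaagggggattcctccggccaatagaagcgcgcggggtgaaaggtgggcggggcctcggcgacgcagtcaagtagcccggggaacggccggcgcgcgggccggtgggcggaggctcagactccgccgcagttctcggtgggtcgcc
Syvn1 (ER stress element, chr19:6046326-6046625, plus strand): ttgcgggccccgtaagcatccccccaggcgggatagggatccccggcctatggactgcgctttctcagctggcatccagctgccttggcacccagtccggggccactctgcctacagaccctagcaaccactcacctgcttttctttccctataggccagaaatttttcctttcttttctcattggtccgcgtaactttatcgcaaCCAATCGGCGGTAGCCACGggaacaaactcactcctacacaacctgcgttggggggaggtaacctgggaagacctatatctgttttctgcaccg
Calr (ER stress element, chr8:84846882-84847181, minus strand): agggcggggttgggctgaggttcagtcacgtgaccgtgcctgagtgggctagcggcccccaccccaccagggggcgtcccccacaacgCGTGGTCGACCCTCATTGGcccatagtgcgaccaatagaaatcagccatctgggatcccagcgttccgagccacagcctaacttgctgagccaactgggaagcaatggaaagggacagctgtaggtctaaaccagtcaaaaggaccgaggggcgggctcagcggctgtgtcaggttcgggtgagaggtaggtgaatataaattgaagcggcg
Hsph1 (heat shock element, chr5:149636266-149636565, minus strand): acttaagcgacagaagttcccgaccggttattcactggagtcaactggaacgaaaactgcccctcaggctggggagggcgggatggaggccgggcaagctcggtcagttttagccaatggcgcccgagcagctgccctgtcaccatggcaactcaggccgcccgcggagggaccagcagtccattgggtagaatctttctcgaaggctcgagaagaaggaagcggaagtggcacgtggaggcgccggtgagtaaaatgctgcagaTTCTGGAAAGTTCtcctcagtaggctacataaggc
Chordc1 (heat shock element, chr9:18292017-18292316, plus strand): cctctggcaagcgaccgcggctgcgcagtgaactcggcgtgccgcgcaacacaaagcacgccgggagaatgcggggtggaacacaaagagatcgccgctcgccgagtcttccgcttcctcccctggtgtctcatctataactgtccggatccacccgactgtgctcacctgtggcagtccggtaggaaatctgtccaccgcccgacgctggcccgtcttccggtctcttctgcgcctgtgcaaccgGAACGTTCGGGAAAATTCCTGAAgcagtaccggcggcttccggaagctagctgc

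The ER stress element was rare, occurring in 18 of 9897 genes (0.182%). It occurred in 5 of the 171 genes called higher that had a promoter (2.92%): the 4 shown and Alg12, a mannosyltransferase of protein glycosylation that starts next to Creld2 in the opposite direction, so that both windows hold the same match. It occurred in none of the 177 called lower. Of the 39 tested ER list genes with a promoter 10 held it (25.6%), and 4 of those 10 were called. Of the 17 ER list genes called higher that had a promoter, 4 held it (23.5%), so the called members held it no more often than the list. The heat shock element occurred in 54 of 9897 genes (0.546%), in 3 of the 171 called higher (1.75%) and in none of the 177 called lower. The 3 were Hsph1, Chordc1 and Nploc4, a cofactor in the extraction of ubiquitinated proteins. Of the 34 tested heat shock list genes with a promoter 5 held it (14.7%), of which Dnajb6, Hspd1 and Hspe1 were not called. Of the 10 called members with a promoter 2 held it (20.0%). With elements this rare, finding none among 177 genes says little. In Chordc1, 3 overlapping matches form a single run across the transcript start. A match is only a match of letters, most chaperones that rose had none in this window, and no test was made of these shares.

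The integrated stress response, which acts through eIF2α and ATF4 on amino acid supply, changed in few of its genes. Of 34 tested members 4 rose and none fell, with a median log2 fold change of 0.24. Chac1, an enzyme that degrades glutathione, stood at 1.62, 1.84 and 2.00 CPM in AOS0 and at 4.14, 6.97 and 9.40 CPM in B+A0 (log2 fold change 1.91 with SE 0.32, edgeR adjusted p = 0.0138). The amino acid transporter Slc7a5 rose by 0.84 on the log2 scale, the serine synthesis enzyme Psat1 by 0.60 and the cysteine-tRNA ligase gene Cars by 0.36. Atf4 itself had 269, 274 and 280 CPM in AOS0 and 294, 277 and 340 CPM in B+A0 (edgeR adjusted p = 0.434). Ddit3, the death-associated factor CHOP, had lower values, with 16.1, 15 and 16.9 CPM in AOS0 and 14, 12.2 and 12.9 CPM in B+A0, and did not pass (log2 fold change -0.30 with SE 0.10, edgeR adjusted p = 0.110). None of the 4 were called without AOS0-1, AOS0-3 or B+A0-3, 1 without AOS0-2 or B+A0-2, and 11 members were called without B+A0-1.

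Single genes outside these lists also rose. Banp, a nuclear matrix-associated protein that binds CpG-rich promoters (chromosome 8, 121947972 to 122029260), had the smallest p of all genes, with 12.7, 12.3 and 9.76 CPM in AOS0 and 34.8, 40.5 and 44.9 CPM in B+A0 (log2 fold change 1.79 with SE 0.17, edgeR adjusted p = 0.00125). Its levels without busulfan at AOS 10 were between these, at 22.6 to 22.9 CPM. B3galt5, a galactosyltransferase of glycan chains, had the largest rise, from 10.2, 27.5 and 53.8 CPM to 145, 85.9 and 285 CPM (log2 fold change 2.5 with SE 0.53, edgeR adjusted p = 0.0291), but the AOS0 libraries differed among themselves by more than 5-fold. It was not called without AOS0-1, AOS0-2 or B+A0-3. Pla2g5, a secreted phospholipase, stood at 30.0, 29.3 and 37.5 CPM in AOS0 and at 59.4, 66.3 and 97.5 CPM in B+A0 and was called in all 12 alternatives. P4ha1 and Serpinh1, an enzyme and an ER chaperone of collagen folding, rose by 1.53 and 1.39 on the log2 scale, while Vim, carried by fibroblasts and leukocytes, fell by 1.12. P4ha1 was called in 9, Serpinh1 in 5 and Vim in 6 of the 12 alternatives. Of 14 tested collagen and fibroblast genes, 9 lay below 0, with a median of -0.37. Further single rises, named after their values were seen and tested as no group, were those of the rRNA methyltransferase gene Nop2 by 0.62, the RNA polymerase I subunit gene Polr1b by 0.57, Srm, the enzyme of spermidine synthesis, by 0.80, and the translocon subunit gene Sec61a1 by 0.50. Of the 12 alternatives, Nop2 and Srm were called in 8, Polr1b in 4 and Sec61a1 in 10. None of 49 ribosomal protein genes was called, and 2 were called higher without B+A0-1.

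**Figure D2:**
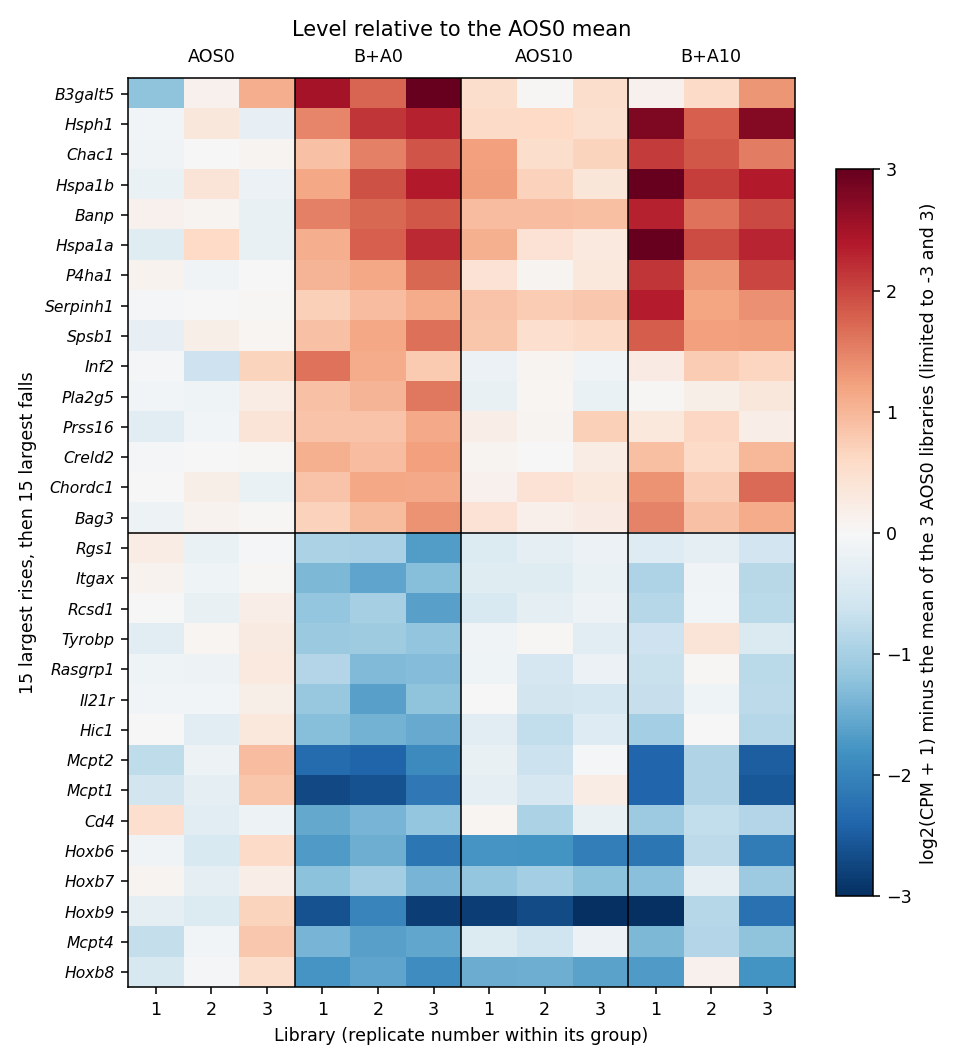
Rows are the 15 largest rises and 15 largest falls in B+A0 against AOS0, columns the 12 libraries by group and replicate, and colour is log2(CPM + 1) minus the AOS0 mean, limited to -3 and 3. The heat shock genes and Banp are also red in B+A10, while the Hoxb genes are blue in AOS10 as well as in B+A0.

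T cell genes fell together. Of 22 tested genes of the T cell receptor complex and T cell surface, 14 fell and none rose, all 22 lay below 0, and the median log2 fold change was -1.60. The summed level of the list was 125.6 to 199 CPM in the AOS0 libraries and 33.2 to 73.9 CPM in the B+A0 libraries. Cd7, a surface protein of T cells, stood at 39.6, 25.0 and 36.5 CPM in AOS0 and at 12.5, 8.76 and 6.06 CPM in B+A0 (log2 fold change -1.89 with SE 0.37, edgeR adjusted p = 0.0235). Itgae, which tethers T cells to epithelial E-cadherin, stood at 27.5, 16.2 and 21.4 CPM and at 7.65, 5.42 and 3.52 CPM. Of the signalling chain, Cd3e fell by 1.72 on the log2 scale, Zap70 by 1.84 and Lck by 1.59. The co-receptor of cytotoxic T cells, Cd8a, fell by 1.69 and that of helper T cells, Cd4, by 2.86. The pan-leukocyte gene Ptprc had 10.6, 7.80 and 10.9 CPM in AOS0 and 5.58, 3.28 and 1.15 CPM in B+A0 and did not pass (edgeR adjusted p = 0.0745). In bulk RNA, fewer cells of a type and less RNA per cell cannot be told apart. No member was called without AOS0-1, AOS0-3 or B+A0-3, and 1 was called without B+A0-2, although the list median stayed at -1.53, -1.53, -1.45 and -1.54.

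Cytotoxic and natural killer genes fell as well. Of 12 tested 5 fell, none rose and the median was -1.61. Ccl5, a chemokine of activated T cells, stood at 69.9, 40 and 58.4 CPM in AOS0 and at 17.9, 12 and 11.2 CPM in B+A0 (log2 fold change -2.03 with SE 0.32, edgeR adjusted p = 0.0112). The protease Gzma stood at 111, 57.6 and 109 CPM and at 32.6, 19.4 and 11 CPM, and the receptors Cd160 and Cd244a fell by 1.93 and 1.21 on the log2 scale. In Ccl5 and Gzma the groups did not overlap, as in every called gene, and B+A0-1 was the highest of the busulfan libraries in both. The count was 0 without AOS0-1 or B+A0-3, 1 without AOS0-3 or B+A0-2, and 8 without B+A0-1. Of single genes named after their values were seen, Coro1a fell by 1.71 and Laptm5 by 1.60; they were tested as no group.

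Of 12 mast cell genes 5 passed the filter on low counts. All 5 fell, and their median of -2.74 was the lowest of the lists with at least 5 tested genes. A gene could pass the filter through the libraries where it was high, so the count and the median depend on it. Mcpt4 had 0.314, 0.119 and 0.182 CPM in B+A0, and Cpa3 0.0627, 0.119 and 0.121 CPM. With no filter, 6 of 11 mast cell genes were called lower and the median was -2.115. The mucosal mast cell protease Mcpt1 stood at 32.1, 39.1 and 85.4 CPM in AOS0 and at 6.40, 6.97 and 10 CPM in B+A0 (log2 fold change -2.74 with SE 0.47, edgeR adjusted p = 0.0153). On the log2 scale Mcpt2 fell by 2.70 and Mcpt4 by 3.72, and the proteases are close relatives whose reads may be shared. Kit, the stem cell factor receptor, which other cells carry too, fell less, from 22.5, 21.2 and 20.9 CPM to 13.5, 13.6 and 12.2 CPM (log2 fold change -0.72 with SE 0.10, edgeR adjusted p = 0.00626). The count was 2 without AOS0-3 or B+A0-2 and 1 without B+A0-3. Kit was called in all 12 alternatives.

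Other immune lists changed less. Of 8 macrophage and dendritic cell genes 1 fell: Itgax, the integrin CD11c, from 3.95, 3.21 and 3.77 CPM to 0.816, 0.536 and 0.909 CPM (log2 fold change -2.26 with SE 0.33, edgeR adjusted p = 0.00794), called in all 12 alternatives. Some intraepithelial T cells also carry Itgax. The summed level of those 8 genes was 137 to 173 CPM in AOS0 and 149 to 177 CPM in B+A0. None of 4 B cell and plasma cell genes, 8 MHC class II genes or 20 MHC class I genes was called. Of 24 interferon response genes 1 rose, the RNA sensor Oas1a by 0.62 (edgeR adjusted p = 0.0465), and 21 lay above 0 with a median of 0.32. Irf7 had 229, 177 and 205 CPM in AOS0 and 346, 211 and 209 CPM in B+A0 (edgeR adjusted p = 0.453), where B+A0-1 was the highest. Without B+A0-1 the median was -0.02, with no member called higher and 1 lower, so the direction of the list rests on that library. Oas1a was not called when any of the 6 libraries was left out. Of the MHC class I genes, 2 were called lower without B+A0-1.

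**Figure D3:**
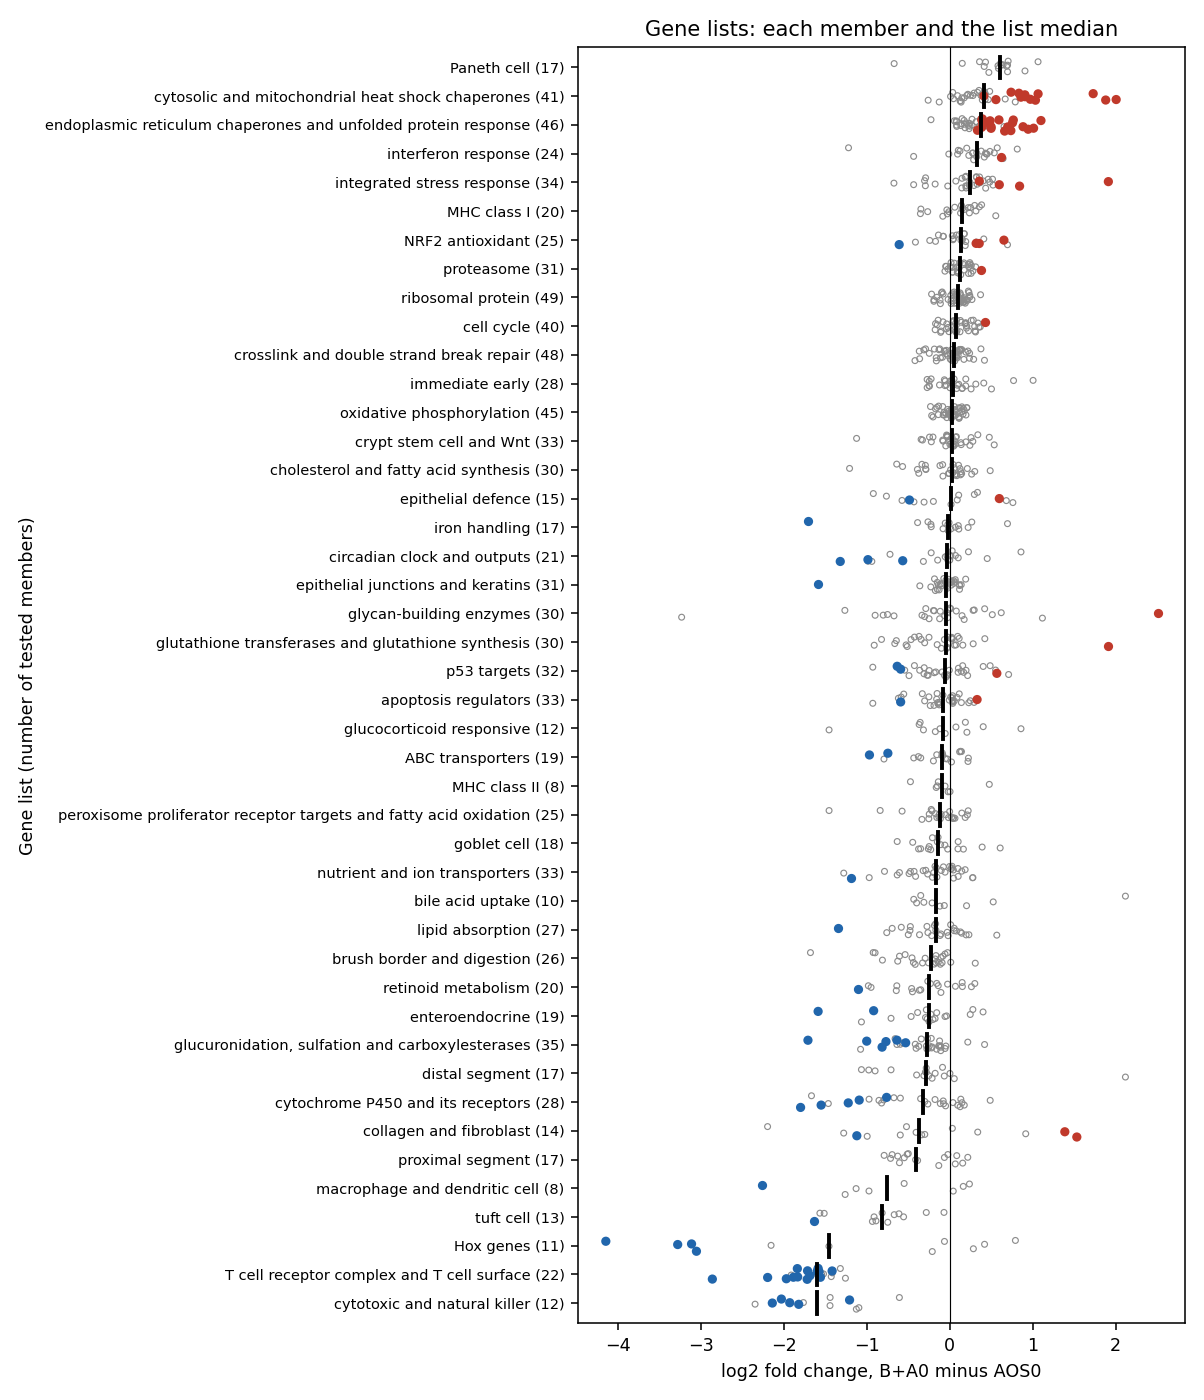
Each circle is 1 tested gene of a list, at its log2 fold change in B+A0 against AOS0, filled where called (red higher, blue lower), and the black bar is the median of the list. Lists with at least 8 tested genes are shown, from the cytotoxic list at -1.61 to the Paneth cell list at 0.61, which has no called gene.

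In the secretory epithelium few genes passed. Tuft cells are chemosensory cells of the epithelium, and all 13 of their tested genes lay below 0 (median -0.82). Avil, an actin regulator of tuft cells, had 4.21, 6.23 and 5.99 CPM in AOS0 and 2.57, 3.57 and 2.43 CPM in B+A0 (log2 fold change -0.93 with SE 0.27, edgeR adjusted p = 0.0686). The taste channel Trpm5 had -0.56 and the kinase Dclk1 -0.91, neither called. Paneth cells secrete antimicrobial peptides at the crypt base, and none of their 17 tested genes was called, although 16 lay above 0 with a median of 0.61. Their summed level was 5281 to 7901 CPM in AOS0 and 9385 to 11250 CPM in B+A0, so the groups did not overlap in the sum. Among all single genes tested, the groups were likewise apart in 29.0%. At AOS 10 the sums overlapped, with 4530 to 9386 CPM in AOS10 and 8440 to 9231 CPM in B+A10. Lysozyme, Lyz1, had 2150, 2184 and 1349 CPM and 2668, 2918 and 2941 CPM (log2 fold change 0.59 with SE 0.30, edgeR adjusted p = 0.271), and Itln1, a lectin, had 630, 708 and 576 CPM and 784, 941 and 1136 CPM (edgeR adjusted p = 0.0595). None of 18 goblet cell genes was called. The log2 fold change was -0.15 (SE 0.13) for Muc2 and -0.25 (SE 0.14) for the trefoil peptide gene Tff3. Without B+A0-1, 2 goblet cell genes were called lower, and 1 Paneth cell gene higher and 1 lower.

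Some genes of drug and alcohol metabolism were lower. Of 28 cytochrome P450 genes and their receptors 5 fell and none rose, with a median of -0.33. Of 35 glucuronidation, sulfation and carboxylesterase genes 6 fell and none rose, with 33 below 0 and a median of -0.28. The summed P450 list overlapped between groups, at 2094 to 2418 CPM in AOS0 and 1526 to 2451 CPM in B+A0. Other epithelial lists had medians near these with fewer calls, at -0.22 for brush border, -0.25 for retinoid metabolism and -0.41 for proximal segment genes. Cyp3a25, a drug-oxidizing P450, stood at 61.8, 105 and 65.3 CPM in AOS0 and at 33.4, 26.7 and 19.0 CPM in B+A0 (log2 fold change -1.55 with SE 0.22, edgeR adjusted p = 0.00685). Cyp2c65, Cyp2c66 and Cyp2c68 fell by 1.09, 1.23 and 0.76 on the log2 scale; these are close relatives. Adh1, an alcohol dehydrogenase that also oxidizes retinol, stood at 333, 458 and 383 CPM and at 206, 176 and 162 CPM (log2 fold change -1.11 with SE 0.16, edgeR adjusted p = 0.00685). Ces1d, a carboxylesterase, fell by 1.71. Of 19 ABC transporters 2 fell: Abcb1a, the drug efflux pump P-glycoprotein, by 0.75 and Abcc6 by 0.97. In each of these genes every B+A0 library lay below every AOS0 library, as in all 239 genes called lower. The groups were apart in 29.0% of all genes tested.

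Of the drug-metabolism genes, 4 that fell lie in an unbroken run among tested genes on chromosome 5: Ugt2b5 and Ugt2a3, which attach glucuronic acid, and the sulfotransferases Sult1b1 and Sult1d1, from 87124946 to 87569006. Their log2 fold changes were -1.0, -0.82, -0.64 and -0.77. Sult1b1, the most abundant by CPM, had 256, 252 and 280 CPM in AOS0 and 213, 154 and 139 CPM in B+A0. The P450 count was 1 without each AOS0 library or B+A0-2 or B+A0-3, and 9 without B+A0-1. The second list had 0 without AOS0-1, AOS0-2 or B+A0-3, 1 without AOS0-3 and 3 without B+A0-2. The transporter count was 0 without AOS0-1, AOS0-3 or B+A0-3 and 1 without AOS0-2 or B+A0-2. Cyp3a25 was called in all 12 alternatives, and Adh1 in all but the one without B+A0-3. Glutathione conjugation is the route by which busulfan is cleared in the body. Of 30 glutathione transferases and synthesis genes only Chac1, described above, was called. Of 25 NRF2 antioxidant genes 3 rose, the glutathione peroxidase Gpx2 by 0.65, the thioredoxin reductase Txnrd1 by 0.35 and Pgd by 0.32, and the catalase gene Cat fell by 0.61; none of the 4 was called without any 1 of the AOS0 libraries or without B+A0-3, and 1 was without B+A0-2.

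In absorptive cells few genes passed. None of 26 brush border and digestion genes was called, and 24 lay below 0 (median -0.22). Lactase, Lct, had 480, 553 and 342 CPM in AOS0 and 428, 186 and 276 CPM in B+A0 (edgeR adjusted p = 0.262), and the lipoprotein gene Apoa4 had 1308, 2538 and 1619 CPM and 1975, 559 and 841 CPM. The groups overlapped in both, with B+A0-1 at control level. Of 33 transporters 1 fell, the amino acid carrier Slc6a20a, by 1.19 on the log2 scale, and of 27 lipid absorption genes 1, the fatty acid receptor Cd36, by 1.34. These counts rest on B+A0-1: without it 9 brush border genes were called lower (median -0.47), 6 transporters (median -0.42) and 9 lipid absorption genes (median -0.32), and none rose. The transporter count was 0 without each of the other 5 libraries, as was the lipid count. Ccl25, the epithelial chemokine that draws T cells to the small intestine, stood at 597, 573 and 577 CPM in AOS0 and at 491, 407 and 349 CPM in B+A0 (log2 fold change -0.49 with SE 0.11, edgeR adjusted p = 0.0325). Duox2, an epithelial oxidase of host defence, stood at 325, 369 and 465 CPM and at 557, 540 and 655 CPM (log2 fold change 0.60 with SE 0.14, edgeR adjusted p = 0.0415). Ccl25 was called in 5 and Duox2 in 7 of the 12 alternatives. Of the genes with the smallest p among the falls, Retreg1, a receptor for autophagy of the ER, stood at 13.9, 13.0 and 13.6 CPM in AOS0 and at 7.84, 7.03 and 6.79 CPM in B+A0. Slc25a36, a mitochondrial nucleotide carrier, stood at 53.7, 61.0 and 48.9 CPM and at 32.9, 34.0 and 30.9 CPM, and Afp at 4.60, 4.33 and 4.59 CPM and at 1.51, 1.07 and 1.09 CPM.

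**Figure D4:**
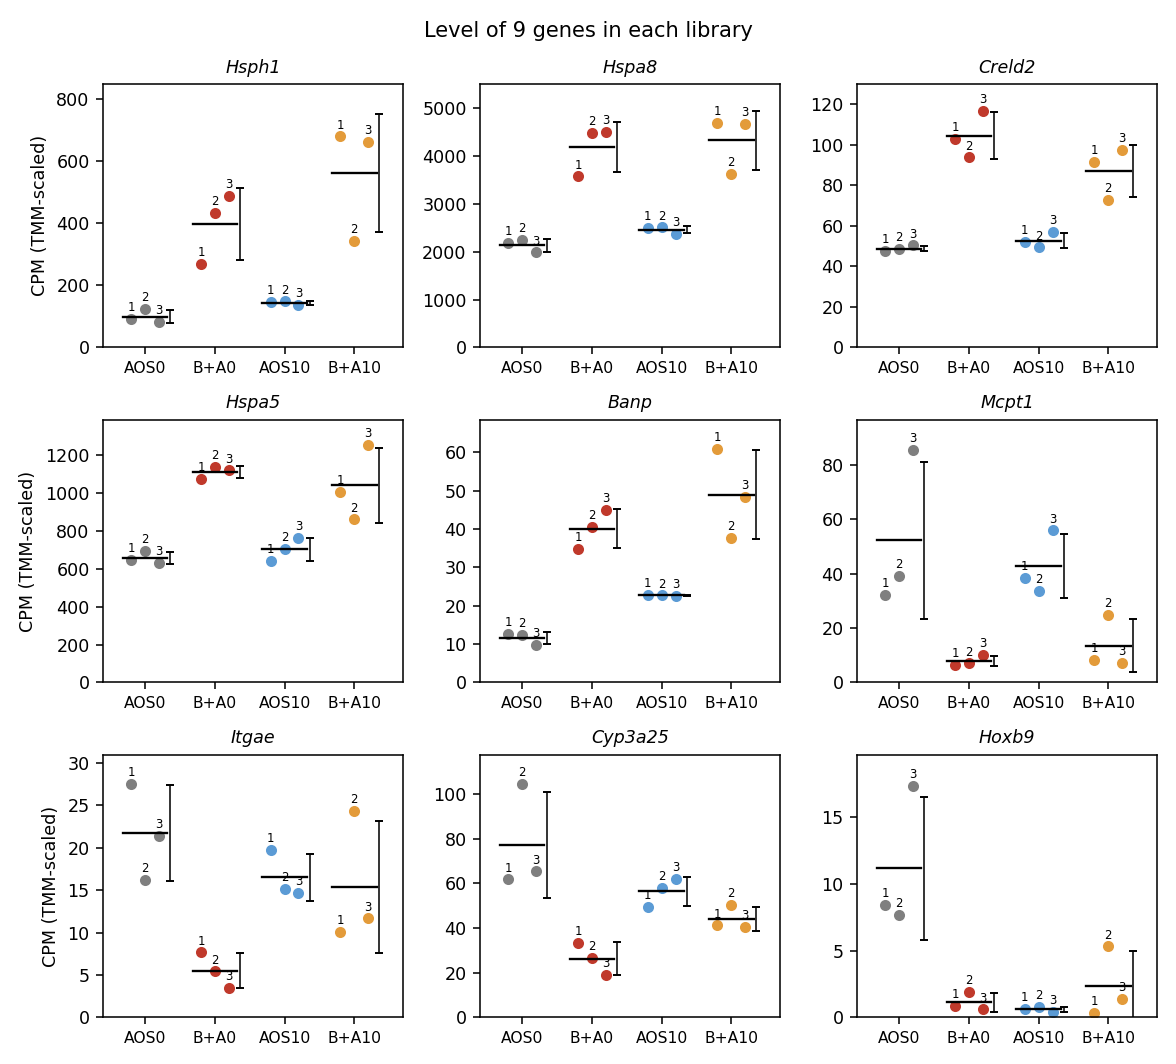
Each point is 1 library (numbered by replicate), placed at its TMM-scaled CPM for 9 genes in the 4 groups; horizontal lines are group means and bars 1 SD (n = 3). Hsph1, Hspa8, Creld2, Hspa5 and Banp are higher in all 3 B+A0 libraries than in all 3 AOS0 libraries, Mcpt1, Itgae and Cyp3a25 are lower, and Hoxb9 is high in AOS0 alone. All 9 genes were called in B+A0 against AOS0, and the 2 groups are apart in every called gene.

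Genes of the Hoxb cluster, which encode transcription factors that mark position along the body axis, fell. Hoxb8 had the largest fall of the genes named by rule, followed by Mcpt4. Hoxb9, Hoxb8, Hoxb7 and Hoxb6 follow each other on chromosome 11, from 96271330 to 96301569. Hoxb9 stood at 8.42, 7.67 and 17.3 CPM in AOS0 and at 0.878, 1.91 and 0.606 CPM in B+A0 (log2 fold change -3.28 with SE 0.68, edgeR adjusted p = 0.0275), and Hoxb8, Hoxb7 and Hoxb6 fell by 4.15, 3.11 and 3.06 on the log2 scale. AOS10, which had no busulfan, was as low as B+A0, with Hoxb9 at 0.614, 0.778 and 0.401 CPM. In B+A10 it was 0.364, 5.31 and 1.41 CPM, and replicate 2 was the highest of the 3 for all 4 genes. Each AOS0 library was thus above every library of the other 3 groups for Hoxb9. Of 11 tested Hox genes, 4 fell. None was called without AOS0-1, AOS0-3, B+A0-2 or B+A0-3, and 2 were called lower without AOS0-2 or B+A0-1. Without B+A0-1, 1 Hox gene was also called higher. The summed level of the 11 genes was 447 to 485 CPM in AOS0 and 480.5 to 502 CPM in B+A0, so the sum did not fall. Among 21 clock genes and their outputs, the repressor Cry2 fell by 0.99 on the log2 scale and Tef by 1.32, and neither was called without any 1 of the libraries other than B+A0-1.

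Genes of the DNA damage response and of crypt renewal gave few or no calls by edgeR. None of 48 genes of crosslink and double strand break repair was called, and their median was 0.05. Fanca, of the crosslink repair complex, had 24.9, 20.6 and 21.1 CPM in AOS0 and 24.3, 25.8 and 28.4 CPM in B+A0 (edgeR adjusted p = 0.221). Of 32 p53 target genes, 1 rose and 2 fell. The metabolic regulator Tigar rose by 0.57 on the log2 scale, and Sesn1 and the BH3-only gene Pmaip1 fell by 0.63 and 0.59. No p53 target was called without AOS0-3 or B+A0-3, and 3 were called higher and 2 lower without B+A0-1. The cell cycle inhibitor Cdkn1a, a main p53 target, had 129, 121 and 141 CPM in AOS0 and 138, 99.1 and 92.1 CPM in B+A0 (log2 fold change -0.25 with SE 0.19, edgeR adjusted p = 0.473). Mdm2 had -0.07 (SE 0.08), Ccng1 -0.09 (SE 0.15) and Bax 0.14 (SE 0.08), all uncalled.

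Of 33 apoptosis regulators the necroptosis kinase Ripk3 rose by 0.33 and Pmaip1 fell, with neither called without any 1 of the libraries other than B+A0-1. Of 40 cell cycle genes Ccnd1, cyclin D1, rose by 0.43 on the log2 scale, from 284, 229 and 233 CPM to 337, 313 and 352 CPM (SE 0.10, edgeR adjusted p = 0.0327). It was called in 6 of the 12 alternatives, and 3 cell cycle genes were called higher without B+A0-1. The proliferation marker Mki67 had 208, 204 and 137 CPM in AOS0 and 150, 189 and 160 CPM in B+A0, with overlapping groups. None of 33 crypt stem cell and Wnt genes was called (median 0.03), and the stem cell factor Ascl2 had a log2 fold change of -0.33 (SE 0.21, edgeR adjusted p = 0.397). No call was made either among 28 immediate early genes or 45 genes of oxidative phosphorylation. These counts do not show that the levels were the same.

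The same drug contrast at AOS 10, B+A10 against AOS10, compares 6 other libraries. These entered the filter and the estimate of spread behind the calls in B+A0 against AOS0, but not the fold changes. There 18 genes were called higher and 2 lower, 0.162% of the genes tested (edgeR), and without 1 library the count lay between 0 (without AOS10-1, AOS10-2 or B+A10-1; 1 without AOS10-3) and 61 (without B+A10-2). Of the 210 genes that rose in B+A0, 197 (93.8%) also lay above 0 at AOS 10, where 50.9% of all tested genes did. Of these, 110 had an unadjusted p under 0.05, against 10.2% of all tested genes in either direction, and 14 were called. Their median log2 fold change was 0.23 there. Of the 239 that fell, 202 (84.5%) lay below 0, where 49.1% of all genes did, 53 had an unadjusted p under 0.05 and 1 was called: Slpi, a secreted protease inhibitor, at -1.66 in B+A0 and -2.06 in B+A10. The median of the falls was -0.21 there.

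The chaperone genes were higher in these libraries too. Hsph1 differed by 1.97 on the log2 scale in B+A10 against AOS10 (SE 0.26, edgeR adjusted p = 0.0274), with 145, 148 and 137 CPM in AOS10 and 679, 342 and 660 CPM in B+A10. The heat shock list had a median of 0.47 with 37 of 41 above 0 and 4 called, and the ER list a median of 0.24 with 44 of 46 above 0 and 4 called. The tuft cell list had a median of -0.87 with 12 of 13 below 0, and the mast cell list of -1.64. The T cell list had a median of -0.13 with 16 of 22 below 0, the P450 list of -0.11 and the Hox list of 0.48. The interferon list had a median of -0.27 with 22 of 24 below 0, opposite in sign to its median in B+A0 with all libraries. Without B+A0-1 the median in B+A0 was -0.02, too close to 0 for its sign to be read. The test of the difference between the 2 drug effects called no gene (edgeR, with 844 of 12329 at an unadjusted p under 0.05, while DESeq2 called 17). Of the genes called in B+A0, 71 of the 210 rises and 165 of the 239 falls had such a p (edgeR). These genes were chosen for their changes in B+A0, which enter the difference. A smaller change at AOS 10 thus follows in part from the choice. Itgae had log2 fold changes of -1.97 in B+A0 and -0.11 in B+A10, a difference of 1.86 (SE 0.47, edgeR adjusted p = 0.499). For Hsph1 the difference was -0.04 (SE 0.36, edgeR adjusted p = 0.988). Itgae stood at 19.7, 15.2 and 14.6 CPM in AOS10 and at 10.1, 24.3 and 11.7 CPM in B+A10, where B+A10-2 was the highest. The summed T cell list spanned 117 to 155 CPM in AOS10 and 77.0 to 194 CPM in B+A10. On the first principal component B+A10-2 lay at -8.59, and B+A10-1 and B+A10-3 at 10.6 and 10.1. How far B+A10-2 sets the T cell values at AOS 10 was not tested.

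**Figure D5:**
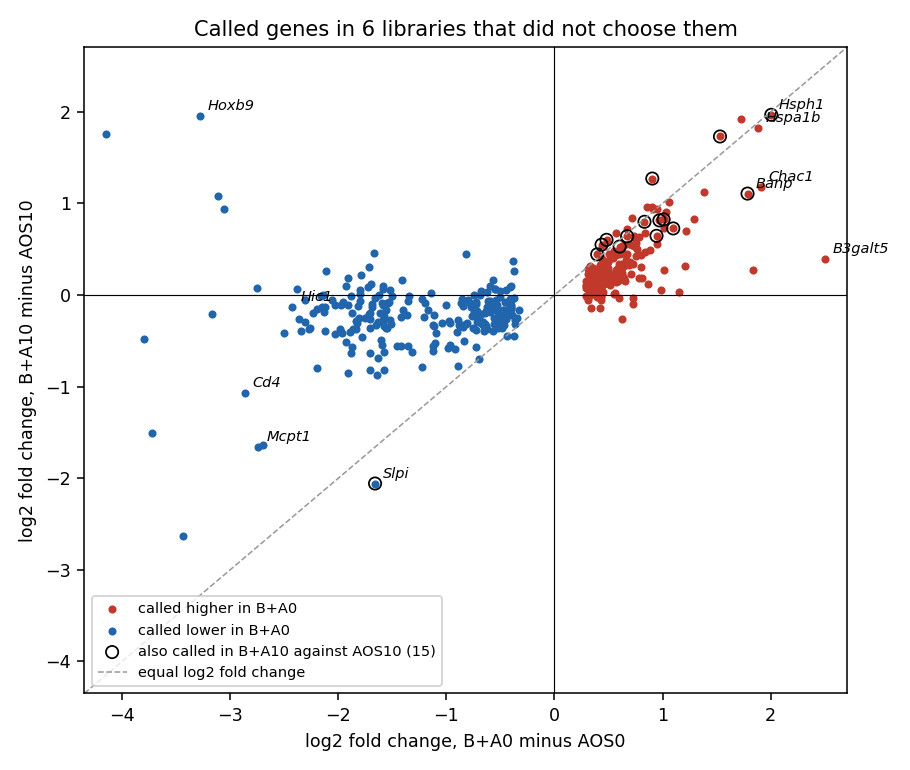
Each point is 1 of the 449 genes called in B+A0 against AOS0, with that log2 fold change on the horizontal axis and the log2 fold change in B+A10 against AOS10, from 6 other libraries, on the vertical axis; the dashed line marks equal changes and rings mark the 15 genes called in both. Of the rises 197 of 210 lie above 0 on the vertical axis, near the line for Hsph1, and most falls lie between the line and 0.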

How the data were processed

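The series deposited 1 table of 16942 genes for 12 RNA-seq libraries of small intestine, and the labels gave each library's group and replicate number. Reads were placed on mm10, a build that the submitters' processing notes name. In the sources used here the aligner, the counting tool and the use of strand are not given, and overlapping or antisense genes may therefore share reads. The deposited read counts are expected counts, since 8.9% to 9.33% of them were not whole (tolerance 1e-06). They were rounded and carry no normalization by the authors. The deposited expression values were read as FPKM, per gene length and library total, although no file header names their unit.

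Genes were kept by filterByExpr (12329), scaled by TMM (factors 0.969 to 1.05) and tested with the edgeR 4.0.16 quasi-likelihood model (R 4.3.3) over all 12 libraries, and p-values were adjusted by Benjamini-Hochberg (threshold 0.05). A standard error (SE) is the size of the log2 fold change divided by the square root of its F. Alternatives were DESeq2 1.42.0, DESeq2 size factors, no filter, limma 3.58.1 on log2(FPKM + 1), leaving out each library, a replicate block and a fit without the other groups. The comparison, the 54 gene lists and the tests were chosen with earlier results of these data known. Named genes are the 15 largest rises and falls (mean of at least 1 CPM, groups apart, unnamed genes and receptor segments excluded), the 10 smallest p per direction, up to 6 called genes per list, the first 2 tested genes of lists with fewer than 2 calls, and runs of at least 3 called neighbours. Others are further list members or were named after their values were seen, and not all genes that the rule names are printed. Coordinates and promoters are from RefSeq GRCm38.p6, matched by gene ID (12282 genes with coordinates). Figures used matplotlib 3.10.9. Results for a few list members are not reported here.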

Additional observations from a re-analysis of the deposited data

Results flagged for a closer look

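Cd68, a lysosomal protein of macrophages and 1 of the genes named by rule, moved in opposite directions in the 2 busulfan comparisons, with no overlap between groups in either. It had 1.23, 1.38 and 1.70 CPM in AOS0 and 0.816, 0.953 and 1.15 CPM in B+A0, but 1.04, 0.778 and 0.468 CPM in AOS10 and 1.64, 1.31 and 1.23 CPM in B+A10. The difference between the 2 effects was 1.40 on the log2 scale (SE 0.44) and did not pass over all genes (adjusted p = 0.522, edgeR). Neither effect was called by itself, and the gene is at low level in all 12 libraries.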

How the results depend on the processing

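The numbers of called genes moved by more than 1.5 times under many settings. For genes higher and lower in B+A0 than in AOS0 (210 and 239), DESeq2 gave 510 and 515, limma on log2(FPKM + 1) 133 and 322, the fit of the compared groups only 105 and 136, and leaving out 1 library 15 to 495 and 6 to 604. DESeq2 size factors and no filter on low counts gave counts within 1.5 times of these. With the replicate number of the labels as a block the counts were 88 and 105. The labels do not say whether the numbers pair the samples. Same-numbered AOS0 and B+A0 libraries had deviations that correlated at -0.0595, 0.0486 and -0.0605, and 0 of 6 libraries correlated best with its own number. Same-numbered AOS10 and B+A10 libraries correlated at 0.246, -0.106 and 0.106. With 3 libraries in a group, these values cannot decide whether same-numbered libraries belong together. For B+A10 against AOS10 (20 genes), DESeq2 gave 138, no filter 40, limma on log2(FPKM + 1) 2, the fit of the compared groups only 0, the replicate block 3, and leaving out 1 library 0 to 61. For the difference between the 2 busulfan effects (0 genes), DESeq2 gave 17 and leaving out 1 library 0 to 1. The cause of these shifts was not tested, beyond fewer libraries entering the fit where groups or libraries were left out. No gene whose fold change is printed in the text reversed its direction under any of the 12 alternatives. Of 123 called genes followed through every setting, 17 were called in all 12. Depth limits the scarcer genes most, and 41.8% of the falls had a mean under 5 CPM.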

Other observations

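Red blood cell RNA differed between libraries of 1 group: Hba-a1, the alpha globin gene, had 9.52, 6.30 and 27.2 CPM in AOS0 and 2.38, 3.40 and 6.18 CPM in B+A0, and did not pass (log2 fold change -1.83 with SE 0.48, edgeR adjusted p = 0.0529). Ribosomal protein genes had no call in either busulfan comparison, with 39 of 49 above 0 in B+A0 against AOS0 and 12 of 49 in B+A10 against AOS10. Genes of oxidative phosphorylation had 28 of 45 and 3 of 45 above 0, again with no call. Genes typical of the proximal and of the distal small intestine, 17 of each, had 13 and 14 below 0 in B+A0 and 13 and 14 below 0 in B+A10, and none was called in either; without B+A0-1, 4 of each were called lower in B+A0 against AOS0.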
